A study of Sus scrofa with 12 samples.

Results

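The HOX genes are the homeobox transcription factors that lie side by side in 4 clusters, HOXA, HOXB, HOXC and HOXD. All protein-coding genes of the pig Sscrofa11.1 annotation with such a symbol and number were taken as members. They were 36 of 19550 protein-coding genes, with 11 in HOXA, 8 in HOXB, 9 in HOXC and 8 in HOXD. HOXB4, HOXB9 and HOXD4 were not analysed here, because the gene table used gives them no position. Open chromatin was taken from the peaks whose midpoint lay between 10 kb below the lowest and 10 kb above the highest coordinate of each cluster. These were 179 of 217213 peak intervals, which made 107 of 140081 regions after merging, with 37 in HOXA, 13 in HOXB, 28 in HOXC and 29 in HOXD.

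HOX genes are numbered by paralogue group, 1 to 13, and the genes of a cluster are read in the same direction, with group 13 at the 5′ end and group 1 at the 3′ end. During development the low numbers are switched on early and toward the head, and the high numbers later and toward the tail. The set of active HOX genes thus records where along the trunk a cell arose, and adult mesenchymal and muscle cells keep part of this pattern. HOX genes outside that set are commonly held closed by Polycomb proteins. The longissimus dorsi is a long muscle of the back that runs along the thoracic and lumbar vertebrae.

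ATAC-seq, in which a transposase cuts accessible DNA, was performed on the longissimus dorsi of 3 Duroc and 3 Luchuan boars aged 180 days and kept under the same feeding conditions. Duroc is a lean commercial breed and Luchuan a small Chinese breed, and no treatment or engineered allele is named for either. The reads of both breeds were aligned to Sscrofa11.1, an assembly made from a Duroc animal. The mRNA libraries of the series were not used here.

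The deposited table lists a pair of read counts per peak, 1 for the breed Duroc and 1 for Luchuan. The values thus have no replicate, and no test and no p-value are given. The 107 HOX regions held 15 to 1303 Duroc reads and 7 to 868 Luchuan reads. Ratios are log2 of Luchuan over Duroc with 1 read added to each, centred so that the median over common regions is 0, which multiplies the Luchuan reads by 1.48. A negative ratio means more reads in Duroc. Each ratio has a 95% Clopper-Pearson interval of the Luchuan share of the reads, called the counting interval here. It covers counting error only and not the spread between boars.

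Genes of the muscle fibre were among the most accessible in the tissue. The 9 of 10 listed fibre genes that were matched, such as ACTA1 and TNNI2, had a median percentile of 99.7 among all protein-coding genes by reads per kb. The medians were 22.9 for 4 endothelial genes, 30.6 for 3 fibroblast genes, 24.3 for 3 adipocyte genes, 23.2 for 3 leukocyte genes, 33.7 for 3 neuronal genes, 49.8 for 3 satellite cell genes and 9.28 for 3 hepatocyte genes. CDH5, FABP4, ALB and TTR had no region. The muscle is a mixture of cells, and in all values that follow, fewer cells with an open site and less opening in each cell cannot be told apart.

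HOXA, HOXC and HOXD were densely open and HOXB was not. Peaks covered 9.79% of the HOXA window, 7.69% of HOXC and 11.3% of HOXD, against 2.26% of HOXB and 2.09% of all chromosomes. Regions stood at 29.1 per 100 kb in HOXA, 20.4 in HOXC and 25 in HOXD, while HOXB had 7.0 and all chromosomes 5.75. The reads of both breeds came to 99.1, 87.7 and 142 per kb of window in HOXA, HOXC and HOXD, and to 8.59 per kb in HOXB. A gene end was within 1 kb of 43.0% of the HOX regions and of 12.7% of all regions, and genes are packed closely in these windows. The median region length was 284 bases, against 251 bases for all regions.

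**Figure D1:**
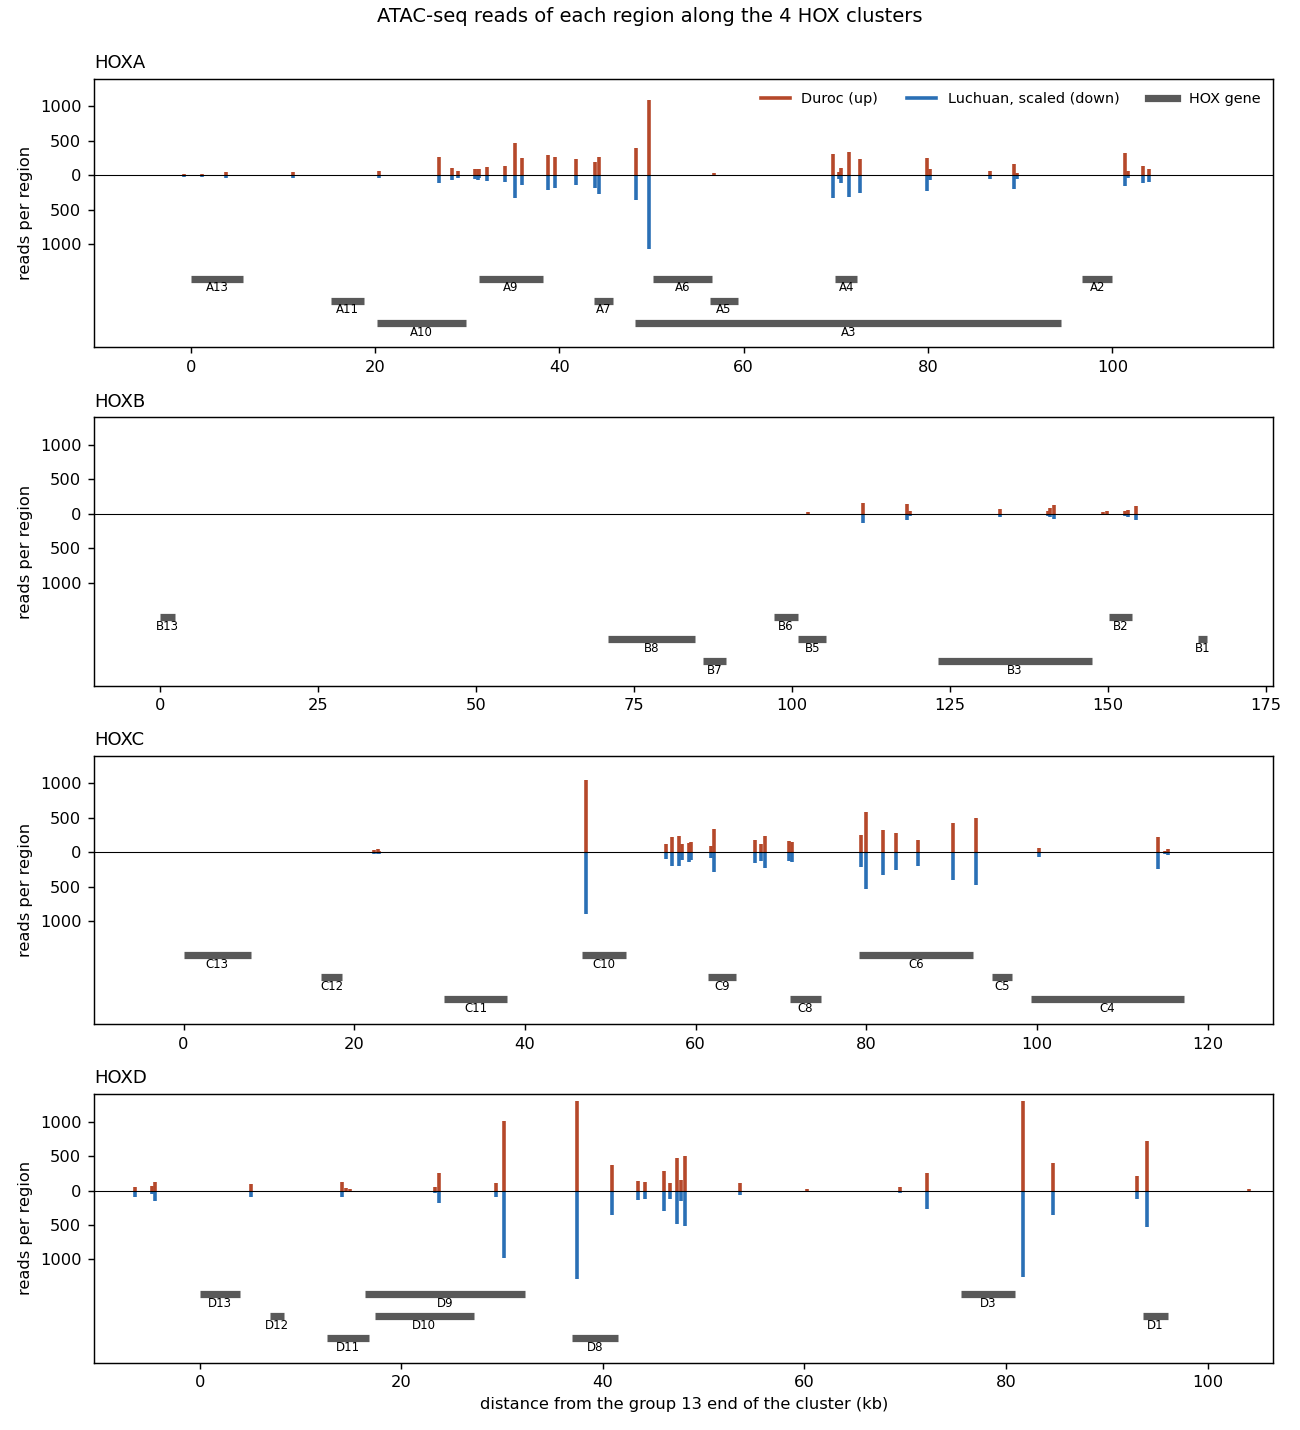
Reads of each region (bars; Duroc up, scaled Luchuan down) against the distance in kb from the group 13 end of the 4 clusters, with HOX genes as grey bars labelled without "HOX". HOXA, HOXC and HOXD have dense bars, tall ones lie at HOXC10, HOXD9, HOXD8 and HOXD3, and HOXB has 13 low bars, all on the side of HOXB5 to HOXB2.

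Within the windows, the longest stretch without a peak was in HOXB. It ran for 112.5 kb from inside HOXB5 to the edge of the window (chr12:24848138-24960661) and held HOXB6, HOXB7, HOXB8 and HOXB13 without a peak. Beyond the window it went on to position 25020382, for 172.2 kb in all. Over all chromosomes, 1.20% of the stretches between regions were at least that long. That share is by number, and the median stretch was 5.66 kb. By length, stretches of 100 kb or more held 36.7% of the bases, so a locus in a long stretch is not unusual. HOXB6 to HOXB8 pattern the thorax and HOXB13 the tail end of the trunk. MIR196A-1, a microRNA gene that targets HOX messages, lay in this stretch 38.2 kb from the nearest region.

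The other end of HOXB was weakly open. HOXB1, a hindbrain gene, lay in a further stretch of 21.1 kb without a peak (chr12:24774953-24796002), which continued outside the window to 55.8 kb. Another stretch of 13.9 kb without a peak separated the regions of HOXB3 from the next ones (chr12:24817919-24831866). Between HOXB5 and HOXB2 there were 13 regions of 33.8 to 285 reads, where reads are Duroc plus scaled Luchuan reads. The strongest, chr12:24839212-24839625, lay 5599 bases from HOXB5 and held 157 Duroc and 87 Luchuan reads. The next, chr12:24832125-24832635 with 137 and 61 reads, lay 1.01 kb from MIR10A, a microRNA gene of the cluster. The third, chr12:24808871-24809416 inside HOXB3, held 120 and 51 reads. The longest runs of regions under 2 kb apart were 1.96 kb over HOXB2 and 1.41 kb inside HOXB3, with 3 regions each.

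HOXC was closed at its 5′ end and open from HOXC10 on. No peak lay in the 32.2 kb that hold HOXC13, a gene of hair follicles, and HOXC12 (chr5:19141096-19173312). With the flank outside the window that stretch was 223.8 kb long, and by number 0.818% of all stretches were at least as long. Long stretches hold a much larger share of the bases, as given above for 100 kb or more. After 3 weak regions of 46.6 to 66.6 reads came another 23.4 kb without a peak, over HOXC11 (chr5:19174113-19197516). It ended at a region of 1554 bases at the 5′ end of HOXC10, chr5:19197517-19199070, with 1048 Duroc and 610 Luchuan reads, the strongest of the cluster. Paralogue group 10 specifies the lumbar, rib-free part of the trunk.

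From HOXC10 to HOXC4 regions lay at or within 2 kb of each gene. HOXC9 and HOXC8, which pattern the thorax, had 573 and 302 Duroc reads within 2 kb of the gene. HOXC6 had 7 regions in all, of which 4 formed the longest run of HOXC at 4.54 kb (chr5:19230261-19234800). Its strongest region, chr5:19230744-19231430, held 584 Duroc and 359 Luchuan reads. The region just past its 3′ end, chr5:19243577-19244364, held 496 and 327 reads and was the only region within 2 kb of HOXC5. The other long run, of 3.20 kb and 6 regions (chr5:19207482-19210683), lay between HOXC10 and HOXC9. It was in part over LOC102167757, a predicted protein-coding gene, and in part past its end. A stretch of 13.5 kb inside HOXC4 had no peak (chr5:19251440-19264969). MIR196A-2 and MIR615 lay 2.93 kb and 2.40 kb from the nearest region.

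HOXA had a region within 2 kb of all 11 genes, but the 5′ end was faint. HOXA13, which shapes the distal limb and the urogenital tract, had 3 regions with 15, 15 and 43 Duroc reads and 21, 17 and 27 Luchuan reads. HOXA11 had no peak in its body, and its only region within 2 kb, with 68 Duroc and 25 Luchuan reads, overlapped the start of HOXA10. From HOXA10 to HOXA9 there followed 10 regions in 9.42 kb, the longest run of the cluster (chr18:45400021-45409439). A run of 5 regions in 5.94 kb led to the start of HOXA7 (chr18:45411937-45417876). The strongest region, chr18:45422463-45423626, lay at the 5′ end of HOXA6 with 1088 Duroc and 722 Luchuan reads. The next were chr18:45408201-45408803 inside HOXA9, with 462 and 228 reads, and chr18:45421412-45421949 between HOXA7 and HOXA6, with 399 and 239 reads.

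In the 3′ part of HOXA, open and closed stretches alternated. HOXA4 had 5 regions with 1035 Duroc and 722 Luchuan reads together. HOXA5, a gene of the lower neck and the lung, had a single weak region with 34 and 9 reads. Beside it ran 12.6 kb without a peak (chr18:45430212-45442816). HOXA2, which sets the identity of the hyoid arch, lay in a stretch of 11.3 kb without a peak (chr18:45463094-45474360). The annotated HOXA3 spans HOXA4, HOXA5 and HOXA6, so that part of its 13 regions also count for those genes.

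HOXD held the strongest regions of all 4 clusters. The regions chr15:81930602-81932184 at the 5′ end of HOXD8 and chr15:81974823-81976441 at the 3′ end of HOXD3 had 1296 and 1303 Duroc reads, and 868 and 850 Luchuan reads. A region inside the annotated HOXD9, chr15:81923532-81924801, had 1005 and 669 reads. The longest run of the cluster, 7 regions in 5.10 kb, lay over and just past LOC110257186, a predicted protein-coding gene beyond HOXD8 (chr15:81937346-81942449). HOXD3, which patterns the neck vertebrae, and a region beyond it made another run of 4.18 kb (chr15:81974823-81979001).

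The 5′ end of HOXD was weak rather than closed. HOXD13 and HOXD12, genes of the digits, shared a region between them of 90 Duroc and 66 Luchuan reads, and HOXD11 had 3 regions with 183 and 96 reads together. The longest stretches without a peak in HOXD were short, at 9.58 kb past HOXD1 (chr15:81988440-81998020), 9.16 kb over HOXD13 (chr15:81889728-81898890) and 9.01 kb between HOXD8 and HOXD3 (chr15:81954346-81963352). MIR10B lay 2.47 kb from the nearest region. EVX2, a homeobox gene of the 5′ flank, had a region with 55 and 34 reads at its end. The 3′ flank of HOXA held LOC106506836, whose only region had 65 and 34 reads and lay outside the window.

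By reads per kb of gene body with 2 kb on both sides, with the reads of both breeds added, HOX genes covered nearly the whole range of the genome. The first in order was HOXD8 with 416 reads per kb (percentile 99.1), followed by HOXA4 with 328, HOXC6 with 285, HOXA6 with 283, HOXA9 with 275, HOXD3 with 272, HOXD1 with 248 and HOXC10 with 213. These 8 genes were above the 90th percentile, 155 reads per kb, and the median of all genes was 29.2. A region was found at 29 of 36 HOX genes against 81.5% of all genes. The 7 without any were HOXB1, HOXB7, HOXB8, HOXB13, HOXC11, HOXC12 and HOXC13. HOXC6, HOXA6, HOXA9 and HOXD3 were close in level, and with pooled counts the order of neighbours has no measure of spread.

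**Figure D2:**
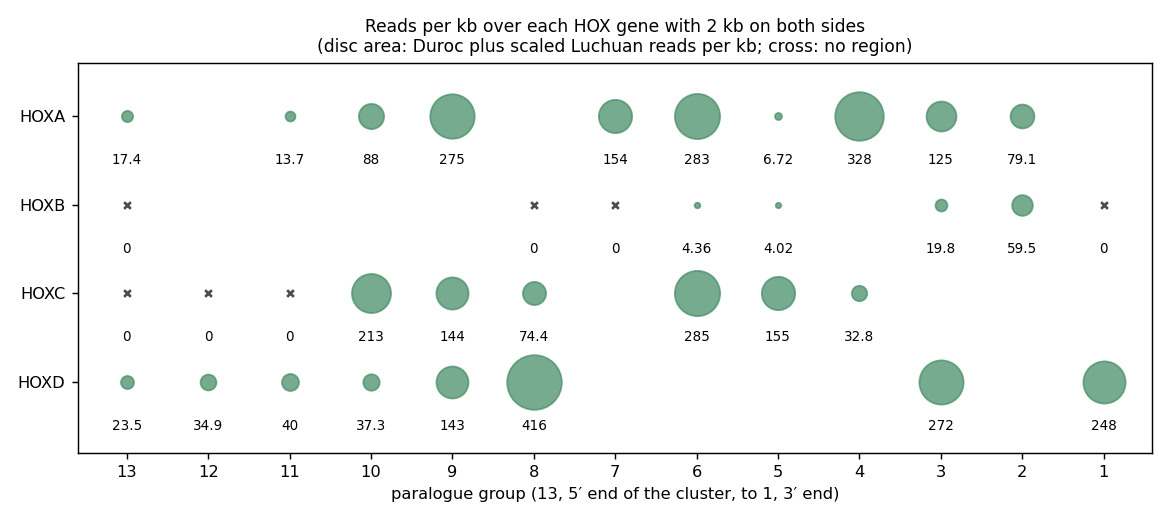
Reads per kb over each HOX gene with 2 kb on both sides, both breeds added, by cluster (rows) and paralogue group from 13 to 1 (columns); disc area shows the value printed below it, a cross marks no region, and an empty place has no gene shown. Groups 11 to 13 have small discs or crosses in each cluster, the largest disc is HOXD8 (416), and HOXB has no value above 59.5.

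Openness differed between groups 11 and 9 in all 3 dense clusters. All 3 analysed genes of group 9 were above the median of all genes (HOXA9 with 275, HOXC9 with 144 and HOXD9 with 143 reads per kb). So were all 3 of group 10 (HOXC10 with 213, HOXA10 with 88.0 and HOXD10 with 37.3). HOXB9 was not analysed, while HOXB13 is among the genes of group 13, so HOXB enters only 1 side of this contrast. In group 11 this was HOXD11 alone, with 40.0 reads per kb, in group 12 HOXD12 alone, with 34.9, and in group 13 no gene of 4. The annotated HOXD9 spans HOXD10 and overlaps HOXD11, so their values are not independent. The medians were 70.8 reads per kb for the 8 genes of groups 1 to 3, 74.4 for the 13 of groups 4 to 8 and 34.9 for the 15 of groups 9 to 13. These 3 medians depend on the flank, and over gene bodies alone they were 10.7, 15.6 and 21.5 reads per kb, so that groups 9 to 13 had the highest in place of the lowest.

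Some HOX genes had a region at their 5′ end. The gene table gives no strand, so the end that faces group 13 was taken as the start, and extended models such as HOXA3, HOXA10 and HOXD9 make this uncertain for some. A region lay within 1 kb of the start of 17 of 36 genes and within 1 kb of the opposite end of 9. Without strands no such share could be had over all genes, so these counts have no background. In packed clusters a region can also count for neighbouring genes, as at the starts of HOXA3 and HOXA6. HOXC10, HOXD8 and HOXD1 had most of their reads at the start, with 1048 of 1048, 1296 of 1812 and 927 of 927 Duroc reads. HOXD3 was the reverse, with no region at its start and all 1303 Duroc reads at its 3′ end.

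Most HOX regions were called as peaks in both breeds, but fewer than among regions with a like number of reads. Of the 107 HOX regions, 63 were called as peaks in both breeds, 39 in Duroc alone and 5 in Luchuan alone. Over all regions the shares were 49.1%, 31.8% and 19.1%, against 58.9%, 36.4% and 4.67% in the HOX windows. Among the 49559 regions with reads between the quartiles of the HOX regions they were 71.1%, 22.4% and 6.54%. Against that set, HOX regions were less often common and more often called in Duroc alone. A peak called in a single breed still held reads of the other, and the lowest Luchuan count of a HOX region was 7. The Duroc libraries were also sequenced more deeply. The reads in all regions were 20760292 in Duroc and 13746432 in Luchuan, totals that do not measure sequencing depth alone.

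Few HOX regions differed by 2-fold or more. There were 5 in the direction of Duroc, or 4.67%, where 5.34% of all regions were, and 1 in the direction of Luchuan, or 0.935%, where 7.40% of all regions were. With the counting interval also clear of 0 the counts were 4 and 1, against 4.99% and 6.38% of all regions. With scaling by sequenced reads the split was 10 and 0 in place of 5 and 1, where 8.41% and 5.09% of all regions passed, and with centring that follows signal strength it was 6 and 0, where 6.83% and 5.47% did. Among the 49559 regions with reads between the quartiles of the HOX regions, 6.20% were 2-fold or more higher in Duroc and 2.39% in Luchuan. Toward Duroc the share of HOX regions called was thus close to that of all regions with each scaling, and did not set them apart. Toward Luchuan, with 1 region or 0, it was lower than that of all regions.

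The regions past 2-fold were mostly weak. In HOXA they were chr18:45400021-45400474 inside HOXA10 with 272 Duroc and 78 Luchuan reads (log2 ratio -1.23, interval -1.62 to -0.87), and chr18:45430058-45430211 at HOXA5 with 34 and 9 reads (-1.25, -2.60 to -0.27). In HOXB they were chr12:24801275-24801456 with 31 and 7 reads (-1.44, -3.01 to -0.37) and chr12:24800749-24800932 with 35 and 11 reads (-1.02, -2.23 to -0.10), both beside HOXB2, a hindbrain gene. In HOXD the region past 2-fold lay in the flank, 7995 bases from HOXD1, with 26 and 8 reads and an interval that reached 0.05. The single one in the direction of Luchuan was chr18:45372558-45372715 beside HOXA13, with 15 Duroc and 21 Luchuan reads (1.02, 0.02 to 2.11). Only the HOXA10 region had more than 100 reads.

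Smaller differences were mostly toward Duroc and were uneven between the clusters. The ratio was below 0 in 77 of 107 HOX regions (72.0%), against 50.8% of all regions and 59.2% of those with a like number of reads. The counting interval lay wholly below 0 in 26 and wholly above 0 in 2, where 15.7% and 13.4% of all regions did. Among the regions with a like number of reads it lay wholly below 0 in 23.3%, close to the 24.3% of the HOX regions. This share thus did not set HOX regions apart. The set with a like number of reads spans only the range between the quartiles of the HOX regions. The 26 were spread unevenly, with 16 of 37 in HOXA, 5 of 13 in HOXB, 4 of 29 in HOXD and 1 of 28 in HOXC. The medians of the ratio were -0.25 in HOXA, -0.57 in HOXB, -0.07 in HOXC and -0.09 in HOXD. Over all regions the median was -0.01, and over those with a like number of reads it was -0.10. By this measure HOXC and HOXD were not lower than regions with a like number of reads. For summed reads the ratios were -0.27 (-0.33 to -0.21), -0.50 (-0.67 to -0.34), -0.09 (-0.15 to -0.04) and -0.09 (-0.14 to -0.04). In HOXB all 13 regions had more reads in Duroc.

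**Figure D3:**
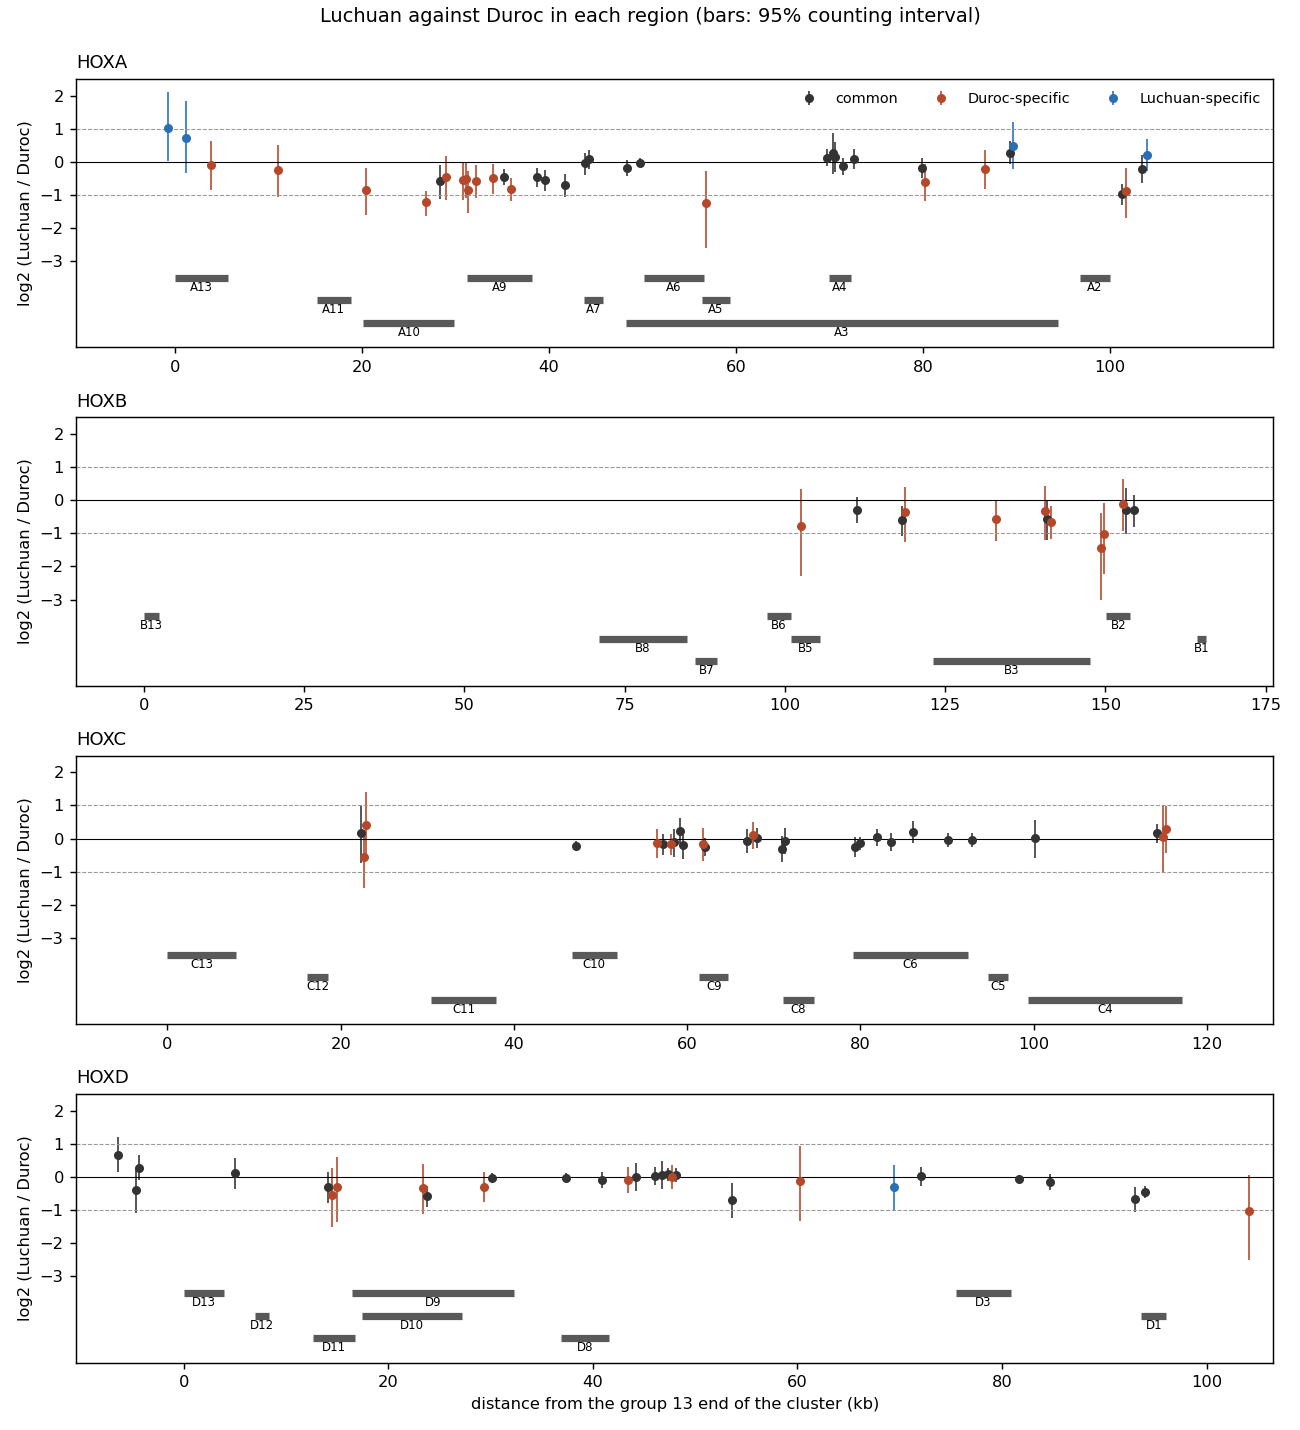
log2 ratio of Luchuan over Duroc of each region (points; bars are 95% counting intervals, dashed lines 2-fold) against the distance in kb from the group 13 end, coloured by the breed in which the peak was called. From HOXA10 to before HOXA7 all 14 points lie below 0, between -1.23 and -0.45, and from HOXA7 on most lie at 0, as they do along HOXC.

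In HOXA, 12 of the 16 regions with an interval wholly below 0 lay in a single stretch. All 14 regions from HOXA10 to just before HOXA7, over 21.6 kb (chr18:45393689-45415266), had lower ratios than 0, with a range of -1.23 to -0.45 and a median of -0.56. Of these, 9 were peaks of Duroc alone and 5 were common. Summed, they held 2537 Duroc and 1100 Luchuan reads, a ratio of -0.64 (-0.75 to -0.54). The region before the stretch had 41 and 23 reads and a ratio of -0.25 (-1.08 to 0.50). The next region after it, at the start of HOXA7, had 196 Duroc and 128 Luchuan reads and a ratio of -0.05 (-0.39 to 0.28). The 5 common regions alone gave -0.53. This stretch was chosen after its values had been seen.

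On either side the ratios of summed reads had intervals that held 0. The 4 weak regions from HOXA13 to HOXA11 had 114 and 88 reads and a ratio of 0.19 (-0.23 to 0.60). The 10 from HOXA7 to HOXA4 had 3014 and 2006 reads and a ratio of -0.03 (-0.11 to 0.06). Their single members were between -0.18 and 0.25, apart from the weak HOXA5 region. In the paralogous stretches, HOXC10 to HOXC9 had -0.18 (-0.27 to -0.08) over 9 regions and HOXD10 to HOXD9 -0.14 (-0.27 to -0.02) over 4.

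By gene, HOXA10 had 774 Duroc and 295 Luchuan reads and a ratio of -0.83 (-1.03 to -0.64). Of the 9243 protein-coding genes with at least as many reads, 0.227% had a ratio as low. HOXA10 and HOXA9 were singled out among the 36 HOX genes after values had been seen. Such shares therefore only describe them and make no allowance for that choice. HOXA9, also a gene of blood stem cells, had 1790 and 821 reads and a ratio of -0.56 (-0.68 to -0.44), and 0.872% of 3211 genes were as low. The values of HOXA10 and HOXA9 are not independent. Regions between chr18:45404143 and chr18:45404736, with 90, 92 and 85 Duroc reads, count for both genes. The 9 genes of the muscle fibre had a median ratio of -0.34, from -0.77 for MYH4, a fast myosin, to 0.04 for TTN, the giant sarcomere protein, and the median over their 308 regions was -0.11. The part of fibre composition in the HOXA values was not tested. HOXA5 alone passed 2-fold by gene, with the 34 and 9 reads given above, where 1.13% of genes with a region were 2-fold or more higher in Duroc. No HOX gene passed it toward Luchuan, where 2.47% did.

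**Figure D4:**
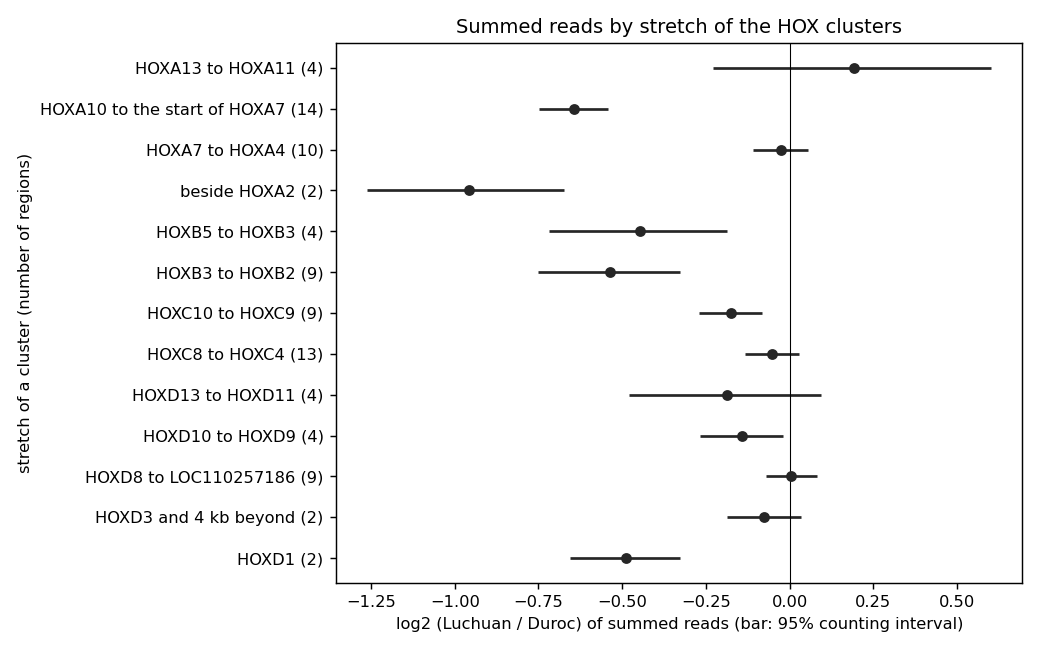
log2 ratio of Luchuan over Duroc of summed reads in stretches of the clusters, with the number of regions in brackets and 95% counting intervals as bars; the stretches were chosen after values had been seen. HOXA10 to the start of HOXA7 (-0.64), the pair beside HOXA2 (-0.96), HOXD1 (-0.49) and both HOXB stretches lie left of 0, and HOXD8 (0.01) and HOXC8 to HOXC4 (-0.05) lie at 0.

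Some low-numbered genes also had more reads in Duroc. Beside HOXA2 and within 2 kb of it, 2 adjoining regions held 319 and 61 Duroc reads and 110 and 22 Luchuan reads, with a summed ratio of -0.96 (-1.26 to -0.67). At HOXD1, a gene of pain-sensing neurons, 2 common regions held 205 and 722 Duroc reads and 87 and 360 Luchuan reads, with a ratio of -0.49 (-0.66 to -0.33). From HOXB3 to HOXB2, 9 regions held 581 and 271 reads, with a ratio of -0.54 (-0.75 to -0.33).

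Of the 8 genes above the 90th percentile, 5 had an interval that held 0, and HOXA9, HOXD1 and HOXC10 had one wholly below 0. HOXD8 had a ratio of -0.04 (-0.14 to 0.07) by gene, HOXA4 0.04 (-0.10 to 0.18), HOXC6 -0.06 (-0.15 to 0.03) and HOXA6 -0.09 (-0.21 to 0.03), and HOXD3 had -0.05 (-0.18 to 0.07). The 9 regions from HOXD8 to LOC110257186 held 3459 Duroc and 2352 Luchuan reads, with single ratios of -0.09 to 0.08. HOXC10 had -0.22 (-0.37 to -0.07), beside the -0.56 of HOXA9 and the -0.49 of HOXD1. Along HOXC the single ratios of all 28 regions were within 2-fold. With scaling by sequenced reads every ratio was lower by 0.20, including that of all regions, and values between 0 and that size then had the opposite sign.

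**Figure D5:**
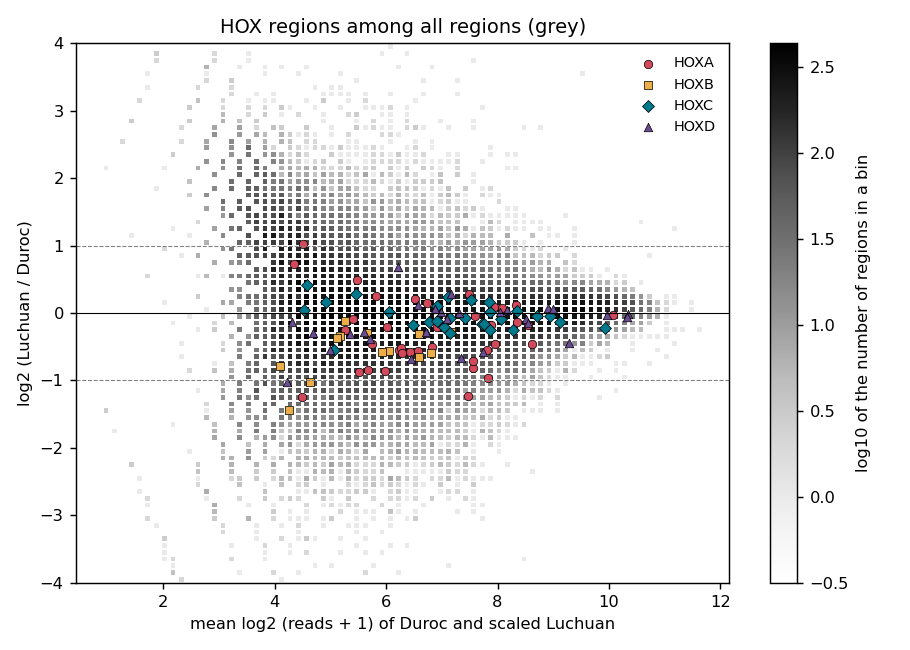
log2 ratio of Luchuan over Duroc against the mean log2 of reads for all 140081 regions (grey, darker where more regions fall in a bin) and for the 107 HOX regions (coloured by cluster); dashed lines mark 2-fold. The 3 HOX regions with the most reads lie between -0.05 and -0.02, 5 points lie at or below -1 and 1 at or above 1.

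Genes that work with or upon HOX genes had regions throughout, and few of these differed by 2-fold. All 9 genes of the PBX, MEIS and PKNOX families, whose products bind DNA together with HOX proteins, had a region, with 5 of 143 regions 2-fold or more higher in Duroc and 5 in Luchuan. All 13 Polycomb genes had a region, with 3 of 107 regions 2-fold higher in Duroc and none in Luchuan, and EZH2, the methyltransferase of the complex, had 1301 and 864 reads (-0.03, -0.16 to 0.10). All 10 Trithorax genes, whose products keep HOX genes active, had a region, with 1 and 3 of 97. For regions the background shares were those given above, 5.34% and 7.40%. By gene, none of these 32 passed 2-fold, where 1.13% of all genes with a region did toward Duroc and 2.47% toward Luchuan. At such shares a list of 32 genes would hold few or none, so this count does not set them apart. A region was found at 81.5% of all genes.

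Of the signals upstream of HOX genes, 6 of 8 matched genes had a region, where 81.5% of all genes did. Of their 50 regions, 2 were 2-fold higher in Duroc and 4 in Luchuan, where 5.34% and 7.40% of all regions were. RARA, a retinoic acid receptor, had 3467 and 2043 reads (-0.20, -0.28 to -0.12), and CYP26A1, which degrades retinoic acid, and CDX2 had none. CDX4 passed 2-fold by gene with 9 Duroc and 40 Luchuan reads. RARG was not matched. Of 22 other positional homeobox and T-box genes, 17 had a region, close to the share of all genes. LBX1, a gene of migrating muscle precursors, stood at percentile 98.0 with 1410 and 849 reads, and EN1 at 95.8. TBX4 and TBX5, genes of the hindlimb and the forelimb, and OTX2, a gene of the forebrain, had none, like GSX2 and LHX2. PITX1, another gene of the hindlimb, had 17 and 16 reads. In this list 1 of 33 regions was 2-fold higher in Duroc and 1 in Luchuan, against the same background shares of regions. By gene, PDX1 passed 2-fold toward Luchuan with 2 Duroc and 13 Luchuan reads. Among all genes with a region, 2.47% passed it in that direction.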

How the data were processed

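Per the labels and the methods, Trimmomatic (version 0.36) cleaned the reads, Bowtie2 placed them on Sscrofa11.1 and MACS2 called the peaks. The values deposited by the authors are raw counts of reads, not scaled for depth. Pooling, duplicate removal and read shifting are not given in the sources used here. The count columns name a breed and no boar, and were read as pooled. The deposited columns of the authors' own comparison (rescaled ratio, average and P) were not used.

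Common intervals that overlap or adjoin were merged, and the longest represented each region. A peak list shows no upper limit where no peak was called. Gene values are sums over the gene with 2 kb on both sides. The gene table used has no strand and no sequence, so promoter motifs could not be searched and no sequence is shown. The HOX genes, gene lists and stretches were chosen with earlier results of these data known. Named were all HOX genes, per cluster the 3 regions with most reads, those 2-fold or more different with an interval clear of 0, the 3 longest stretches without a peak, the 2 longest runs of regions under 2 kb apart, and protein-coding genes in the flanks. Some of these results are not reported here. MicroRNA genes and stretches were added after values had been seen. The scripts were tested on simulated data. Alternatives covered scaling, centring, pseudocount, read minimum, merging and flanks. The software was SciPy 1.17.1 and pandas 2.3.3 on NumPy 2.4.6 under Python 3.11.15, and the plots were drawn with Matplotlib 3.10.9.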

Additional observations from a re-analysis of the deposited data

How the results depend on the processing

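No paired analysis was possible because each breed has 1 pooled count per peak, and for the same reason no boar could be left out. Of 105 alternative values, 70 stayed within 1.5 times the main value or, for ratios, within the counting error of the summed reads. That error is not one of the cluster medians themselves. No cluster median of the ratio changed sign. Scaling by sequenced reads lowered every ratio, with medians of -0.44, -0.76, -0.27 and -0.28 in HOXA, HOXB, HOXC and HOXD, -0.84 from HOXA10 to the start of HOXA7, and 10 and 0 regions past 2-fold toward Duroc and Luchuan. The median of all regions was then -0.20. Scaling by total reads left 3 regions past 2-fold toward Duroc. Centring by signal strength gave a HOXA median of -0.40 and 0 regions toward Luchuan. Without flanks the HOXA median was -0.35 and 0 regions were past 2-fold toward Luchuan, and with 50 kb flanks the HOXB median was -0.37 and 2 were. In common regions only, an alternative chosen after seeing the data, the medians were -0.15 in HOXA, -0.31 in HOXB and -0.021 in HOXD, and the HOXA10 stretch had -0.53. With peaks of 50 or more reads the longest stretches without a peak were 19.2 kb in HOXA and 15.6 kb in HOXD. Common peaks covered 6.37% of HOXA and 1.11% of HOXB, and peaks called in Luchuan 5.81% and 0.640%. Over gene bodies alone the medians of groups 1 to 3, 4 to 8 and 9 to 13 were 10.7, 15.6 and 21.5 reads per kb, and with 5 kb on both sides 152 for groups 4 to 8 and 23.0 for groups 9 to 13. Duroc reads alone gave 43.5, 39.7 and 16.8, and Luchuan reads alone 28.8, 34.7 and 15.2. Except where the alternative counts fewer regions, bases or reads, the cause was not tested. Depth limits the regions under 50 reads, whose intervals span more than 2-fold.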
